A study of Nicotiana benthamiana with 8 samples.

Results

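Laccases are described here in leaves of Nicotiana benthamiana, a tobacco relative, that transiently expressed the apple transcription factor MdMYB68. The members are the transcript contigs whose annotation names a laccase, or whose closest Arabidopsis gene carries the symbol LAC3, LAC12 or IRX12. This rule gave 16 of the 3305 contigs in the deposited table, of which 2 carry the symbol LAC3, 3 LAC12, 8 IRX12 (also known as LAC4) and 3 LAC7. The annotation against green plant proteins named a laccase for 16 of 16, and the annotation against Arabidopsis named a laccase for 12 and a diphenol oxidase, another name for the enzyme, for 4. The deposited table was restricted by the authors to contigs that differed between the same libraries, so the tests given here are not independent evidence of a difference, and laccase contigs outside that selection were not analysed here. The files and the sources used here gave no sequence or genome position for the contigs, which are therefore named by contig and symbol only.

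Leaves of 4-week-old plants were infiltrated with Agrobacterium tumefaciens GV3101-pMP90. In the MdMYB68 group the bacteria carried MdMYB68 in the p103 vector, fused to the green fluorescent protein and driven by the constitutive CaMV35S promoter, and in the Empty vector group they carried p103 without MdMYB68. Both groups also received a pBIN61 strain for p19, a viral suppressor of gene silencing, so leaves of both groups were infiltrated and received p19. Leaves were collected 4 days later, and each of the 4 biological replicates per group was a pool of 3 plants with 4 leaves per plant. MdMYB68 was thus placed in mature leaf cells by a transient assay, without selection for cells that took it up. The study asked which genes respond to MdMYB68, a candidate regulator of suberin deposition in russeted apple skin.

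Laccases are secreted enzymes that hold copper ions and use oxygen to turn monolignols, the building blocks of lignin, into radicals that couple in the cell wall. Class III peroxidases carry out a similar oxidation with hydrogen peroxide. Suberin, the wall polymer of periderm and endodermis, has an aromatic domain that is built from related phenolics, and in Arabidopsis LAC4/IRX12 is known for lignification of stem vessels and fibres while LAC3 was located at the Casparian strip of the root endodermis.

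The libraries held 31244291 to 34080202 mapped reads in the MdMYB68 group and 29371282 to 32279582 in the Empty vector group. Levels are given as total gene reads per kilobase and per 1000000 of all mapped reads of the library, which puts contigs of the primary and the alternate reference set on 1 scale. The deposited RPKM values divide by the reads of the contig's own set and were larger than these levels by a median factor of 1.20 for primary and 5.90 for alternate contigs. Markers of leaf mesophyll (small subunits of Rubisco and chlorophyll-binding proteins) had negative log2 fold changes for 44 of 44 listed contigs, of which 43 were called lower with MdMYB68, with a summed level of 6698 to 10697 against 29674 to 43609 with the Empty vector. Markers of endodermis and Casparian strip were called higher for 12 of 12, with a summed level of 1714 to 2011 with MdMYB68 against 0.475 to 1.44 with the Empty vector. These calls stand beside 83.4% of all listed contigs called higher and 12.4% called lower, in a table restricted to contigs that differed. No listed contig carried the symbol of a xylem and secondary wall marker (CESA4, CESA7, CESA8, IRX1, IRX3, IRX5, XCP1, XCP2, VND6 or VND7), whereas 3 contigs of IRX9 and 3 of IRX14-L, xylan synthesis genes outside that marker set, were listed with positive log2 fold changes. The xylem set was searched by symbol only, so contigs without a symbol would be missed, and contigs outside the authors' selection are not listed. The part of these markers in the laccase values was not tested. In such leaf samples, fewer cells of a type and less RNA per cell cannot be told apart. The table holds N. benthamiana contigs only, and the apple transcript of MdMYB68 was not analysed here.

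Transcripts of the listed laccase contigs were abundant in leaves expressing MdMYB68 and scarce in leaves with the Empty vector. Contigs entered by the authors' cut-offs on this same contrast, so laccases without such a difference are absent from the sums below and their ratio. In reads per 1000000 mapped reads, the 16 contigs summed to 3574, 2726, 3450 and 3289 in MdMYB68 replicates 1 to 4, against 32.5, 34.6, 37.4 and 34.6 in Empty vector replicates 1 to 4. On that scale the mean was 3260 ± 375 with MdMYB68 and 34.8 ± 1.99 with the Empty vector (SD, n = 4 each), a 93.7-fold ratio. The summed level of the 16 contigs was 1585 ± 185 with MdMYB68 and 16.3 ± 0.843 with the Empty vector (SD, n = 4 each). MdMYB68 replicate 2 had the lowest value of its group and was still far above the highest Empty vector library.

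The 16 laccase contigs were all called higher with MdMYB68 by edgeR's quasi-likelihood test with Benjamini-Hochberg adjustment over the 3305 contigs at an adjusted p under 0.001. Among all listed contigs, 83.4% were called higher and 12.4% lower, so a full set of rises is near the background of this table. The largest adjusted p among the laccases was 5.8e-05. Groups did not overlap in RPKM for any of the 16, against 85.9% of all contigs that were higher without overlap. An exact permutation test on log2(RPKM + 1), two-sided, gave p = 0.029 for each, which is the smallest that 4 libraries against 4 allow. The log2 fold changes ran between 2.35 and 10.44, with a median of 5.59 over the laccases and 3.34 over all listed contigs. With the contigs that had no Empty vector read set at their lower bound, these medians were 5.51 and 3.34. Over only those listed contigs with a positive log2 fold change, without that bound, the median was 3.77. A ratio of at least 100-fold was reached by 5 of 16 laccase contigs and by 14.6% of all contigs.

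The size and, for 3 contigs, the direction of these values changed with the scaling. TMM factors estimated from the table itself set the median log2 fold change of all contigs at 0.40, and DESeq2's median-of-ratios factors set it at 0.43. Both scalings thus centre the selected contigs, of which 85.9% had a positive log2 fold change with all mapped reads as library size. Under TMM, 964 contigs were called higher and 612 lower, against 2757 and 411 with all mapped reads as library size. With these TMM factors 13 laccase contigs were positive, where 57.9% of all contigs were, and 9 were called higher, where the background was 29.2%. The other 3 were negative, and 1 of them, the LAC3 contig Nbv5tr6231656, was called lower, where the background was 18.5%. With DESeq2's factors 11 were called higher, against a background of 37.1%, and Nbv5tr6231656 was again called lower.

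**Figure D1:**
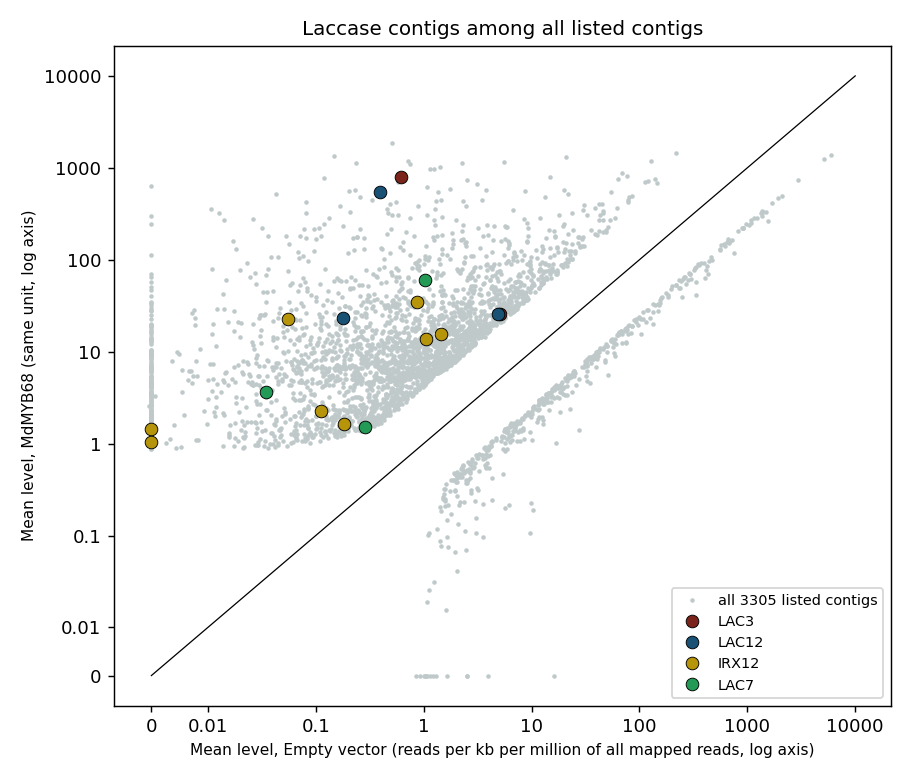
Mean level with MdMYB68 (vertical, log axis) against mean level with the Empty vector (horizontal, log axis) in reads per kilobase per 1000000 mapped reads, over 4 libraries each, with all 3305 listed contigs in grey, laccases coloured by symbol, values of 0 drawn at the axis start and a diagonal line of equal levels. The 16 laccase contigs lie above the diagonal, and 1 LAC3 and 1 LAC12 contig stand at levels of 804 and 549 with MdMYB68 and below 1 with the Empty vector.

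LAC3 held the most abundant of the listed laccase contigs with MdMYB68 and also 1 of the least changed. Nbv5tr6242242 had 63168, 37501, 54522 and 54212 reads in MdMYB68 replicates 1 to 4, against 44, 42, 36 and 31 in Empty vector replicates 1 to 4. Every MdMYB68 library was far above every Empty vector library, and replicate 2 was the lowest of its group. The level was 804 ± 186 with MdMYB68 and 0.612 ± 0.111 with the Empty vector (SD, n = 4 each), a 1313-fold ratio. The log2 fold change was 10.36 (SE 0.29, edgeR adjusted p = 5.55e-10). By mean level this contig stood at place 20 of the 3305 listed contigs with MdMYB68 and at place 1860 with the Empty vector. Practically all of its reads were placed uniquely on it.

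The other LAC3 contig, Nbv5tr6231656, was the listed laccase contig with the highest level in Empty vector leaves. It had 1623, 1821, 1704 and 1675 reads with MdMYB68, against 338, 274, 337 and 332 with the Empty vector. The MdMYB68 libraries were close to each other, and the groups did not overlap. Its level was 26.0 ± 0.733 with MdMYB68 and 5.11 ± 0.649 with the Empty vector (SD, n = 4 each), a 5.08-fold ratio with a log2 fold change of 2.35 (SE 0.12, edgeR adjusted p = 2.0e-08). With all mapped reads as library size it was thus called higher, but it was called lower under TMM (-0.61, edgeR adjusted p = 0.00095) and under DESeq2's own factors (-0.58, DESeq2 adjusted p = 5.3e-09). Those factors come from the selected contigs alone. A library size without the listed contigs, added after seeing the data, gave this contig a log2 fold change of 2.52. Its reads were all uniquely placed as well.

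LAC12 had a similar split. Nbv5tr6228735 had 36229, 41294, 38858 and 35229 reads with MdMYB68, against 12, 29, 33 and 30 with the Empty vector. Replicate 2, the lowest MdMYB68 library for the leading LAC3 contig, had the most reads here. By level, replicate 3 was the highest at 582, above replicate 2 at 567. The level was 549 ± 31.7 with MdMYB68 and 0.390 ± 0.139 with the Empty vector (SD, n = 4 each), a 1405-fold ratio, and the log2 fold change was 10.44 (SE 0.28, edgeR adjusted p = 4.05e-10). Only 16.2% of its reads were uniquely placed, so the other reads also matched further contigs and its level is uncertain. Its unique reads alone gave a log2 fold change of 10.23. It stood at place 41 of all listed contigs by mean level with MdMYB68 and at place 2136 with the Empty vector.

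The LAC12 contig Nbv5tr6236489, which the green plant annotation calls Laccase-5, had 2000, 2049, 2007 and 2573 reads with MdMYB68, against 295, 420, 448 and 408 with the Empty vector. The groups were apart, and the level was 25.9 ± 3.43 with MdMYB68 and 4.91 ± 0.772 with the Empty vector (SD, n = 4 each). The log2 fold change was 2.40 (SE 0.15, edgeR adjusted p = 8.7e-08), and it turned to -0.55 under TMM and to -0.52 under DESeq2's factors. The remaining LAC12 contig, Nbv5tr6223276, had 1213 to 1876 reads with MdMYB68 and 6 to 17 with the Empty vector, of which 98.4% were unique. Its level was 23.1 ± 4.10 with MdMYB68 and 0.178 ± 0.0698 with the Empty vector (SD, n = 4 each), a 129.9-fold ratio with a log2 fold change of 7.01 (SE 0.27, edgeR adjusted p = 2.8e-09). With MdMYB68 the library ranges of both contigs overlapped in level, while their Empty vector ranges did not.

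**Figure D2:**
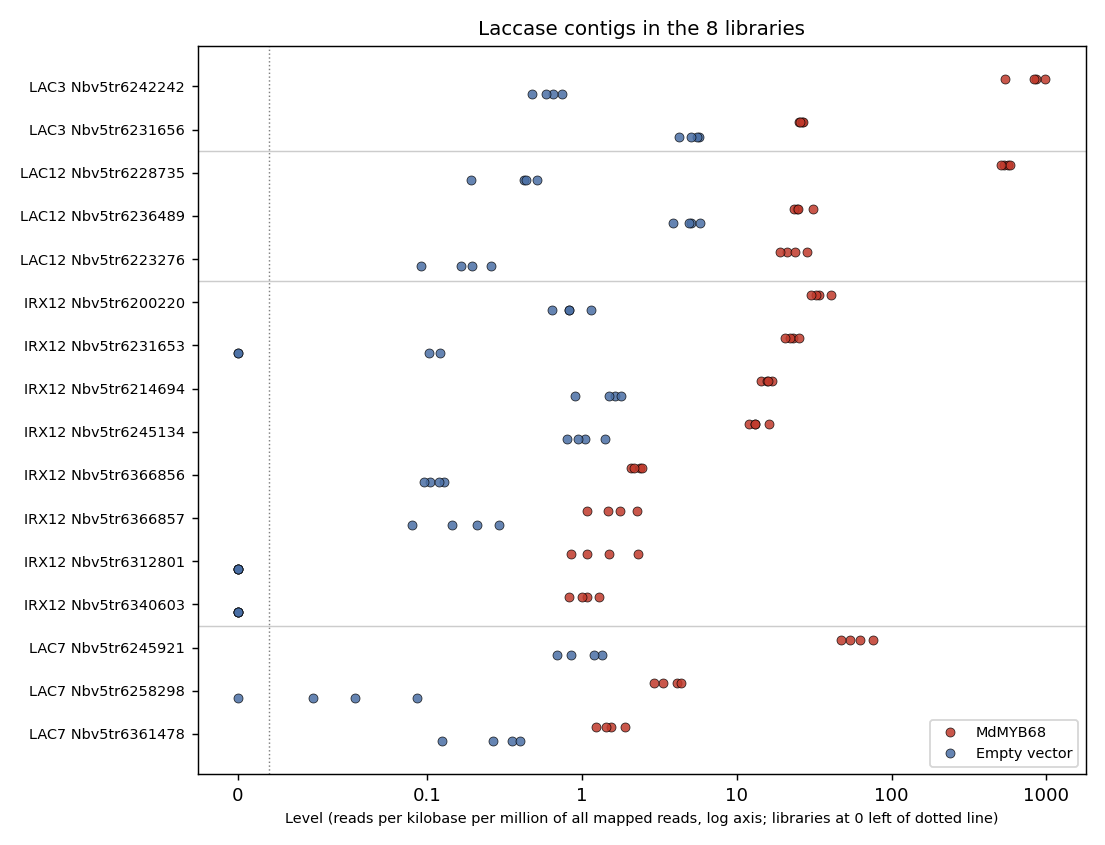
Level of each laccase contig in each library, in reads per kilobase per 1000000 mapped reads on a log axis, with 4 MdMYB68 libraries above 4 Empty vector libraries in each line and libraries at 0 left of the dotted line. The points of the groups do not overlap for any of the 16 contigs, and the MdMYB68 means are highest for the LAC3 contig at 804 and the LAC12 contig at 549.

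IRX12 had the most contigs and lower levels. Its leading contig, Nbv5tr6200220, had 2123, 2188, 2506 and 1911 reads with MdMYB68, against 37, 52, 49 and 73 with the Empty vector. The lowest MdMYB68 library was well above the highest Empty vector library. The level was 34.5 ± 4.56 with MdMYB68 and 0.863 ± 0.212 with the Empty vector (SD, n = 4 each), a 40.0-fold ratio with a log2 fold change of 5.31 (SE 0.20, edgeR adjusted p = 2.3e-09). Of its reads 24.3% were unique.

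Nbv5tr6231653, a shorter IRX12 contig of 1293 bases, had 954, 971, 825 and 1053 reads with MdMYB68, against 0, 5, 4 and 0 with the Empty vector. It was close to absent in Empty vector leaves, where 2 of 4 libraries had no read. The level was 22.8 ± 2.05 with MdMYB68 and 0.0559 ± 0.0649 with the Empty vector (SD, n = 4 each), and the ratio of reads had a 95% counting interval of 213 to 886. The log2 fold change was 8.59 (SE 0.46, edgeR adjusted p = 2.7e-08), and it was 9.27 without Empty vector replicate 2. The contig had 61.3% unique reads.

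Nbv5tr6214694 had 868, 791, 795 and 834 reads with MdMYB68, against 43, 85, 73 and 94 with the Empty vector. Nbv5tr6245134 had 753, 605, 607 and 623 reads with MdMYB68, against 45, 66, 42 and 38 with the Empty vector. Both contigs were apart between the groups, with the smaller rises among the primary IRX12 contigs. The level of Nbv5tr6214694 was 15.7 ± 1.06 with MdMYB68 and 1.45 ± 0.388 with the Empty vector (SD, n = 4 each), with a log2 fold change of 3.43 (SE 0.21, edgeR adjusted p = 8.1e-08). The level of Nbv5tr6245134 was 13.7 ± 1.75 with MdMYB68 and 1.05 ± 0.257 with the Empty vector (SD, n = 4 each), with a log2 fold change of 3.70 (SE 0.21, edgeR adjusted p = 4.9e-08). Under TMM both fell short of the threshold, with log2 fold changes of 0.47 (edgeR adjusted p = 0.064) for Nbv5tr6214694 and 0.75 (edgeR adjusted p = 0.0080) for Nbv5tr6245134.

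The 4 IRX12 contigs of the alternate reference set had far fewer reads. Nbv5tr6312801 had 42, 63, 33 and 92 reads with MdMYB68, against 0, 0, 0 and 0 with the Empty vector. Nbv5tr6340603 had 41, 41, 31 and 50 reads with MdMYB68, against 0, 0, 0 and 0 with the Empty vector. These were the 2 laccase contigs without an Empty vector read, a state shared by 5.42% of all listed contigs. With the Empty vector sum set at a floor of 3 reads, Nbv5tr6312801 was at least 73.4-fold higher with MdMYB68 and Nbv5tr6340603 at least 52.0-fold higher. The edgeR adjusted p was 2.9e-05 for Nbv5tr6312801 and 4.4e-06 for Nbv5tr6340603, and all of their reads were unique. Under TMM Nbv5tr6312801 was not called (log2 fold change 8.03, edgeR adjusted p = 0.0049).

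Nbv5tr6366857 had 109, 71, 89 and 142 reads with MdMYB68, against 12, 9, 17 and 5 with the Empty vector. Its log2 fold change was 3.18 (SE 0.40, edgeR adjusted p = 1.9e-05) and was 0.24 under TMM (edgeR adjusted p = 0.60). Nbv5tr6366856, of the same length of 1943 bases, had 127 to 157 reads with MdMYB68 and 6 to 8 with the Empty vector, with a log2 fold change of 4.31 (SE 0.25, edgeR adjusted p = 5.2e-08). Neither had a uniquely placed read in any library, so how reads were divided between them and other contigs is uncertain. Contigs without a unique read made up 3 of 16 laccases and 12.0% of all listed contigs.

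LAC7 was carried mainly by Nbv5tr6245921, at place 3 of the listed laccase contigs by mean level in leaves expressing MdMYB68. It had 3596, 3356, 4102 and 5135 reads with MdMYB68, against 83, 57, 44 and 81 with the Empty vector. The groups were wide apart, and 89.8% of the reads were unique. The level was 59.9 ± 12.5 with MdMYB68 and 1.02 ± 0.301 with the Empty vector (SD, n = 4 each), a 58.6-fold ratio with a log2 fold change of 5.87 (SE 0.25, edgeR adjusted p = 6.5e-09).

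The alternate LAC7 contig Nbv5tr6258298 had 190, 179, 232 and 254 reads with MdMYB68, against 0, 5, 1 and 2 with the Empty vector. The 95% counting interval of the ratio was 51.7 to 238, and the log2 fold change was 6.61 (SE 0.53, edgeR adjusted p = 5.7e-07). When 1 library was left out it ran over 6.23 to 7.51, the highest without Empty vector replicate 2. It was 5.78 from the unique reads, which were 16.7% of all reads of the contig. Nbv5tr6361478, the longest laccase contig with 2988 bases, had 116, 157, 134 and 182 reads with MdMYB68, against 31, 38, 24 and 12 with the Empty vector. Its groups were apart, it had no unique read, and its log2 fold change was 2.41 (SE 0.35, edgeR adjusted p = 5.8e-05). That sign turned to -0.53 under TMM and to -0.51 under DESeq2's factors.

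More neighbours in the order of laccases by level were apart with MdMYB68 than with the Empty vector. Many Empty vector levels rest on few reads per library or on none, and the part of counting error in this was not tested. With MdMYB68, the leading LAC3 and LAC12 contigs overlapped in their library ranges, and both were apart from the LAC7 contig Nbv5tr6245921, which was apart from the IRX12 contig Nbv5tr6200220. Next came Nbv5tr6231656, Nbv5tr6236489, Nbv5tr6223276 and Nbv5tr6231653, whose neighbours in the order overlapped at mean levels of 26.0, 25.9, 23.1 and 22.8. Of 15 neighbouring pairs in the order, 6 were apart with MdMYB68 and 1 with the Empty vector. That 1 gap lay between Nbv5tr6236489 at 4.91 and Nbv5tr6214694 at 1.45. Nbv5tr6231656 and Nbv5tr6236489 thus stood above all other listed laccase contigs in Empty vector leaves.

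The make-up of the laccase reads, meaning reads on the listed laccase contigs only, differed accordingly. The leading LAC3 and LAC12 contigs together held 87.7, 84.8, 86.6 and 84.4% of laccase reads in MdMYB68 replicates 1 to 4, against 5.86, 6.41, 6.12 and 5.46% in Empty vector replicates 1 to 4. The contig Nbv5tr6231656 held 1.64% of laccase reads with MdMYB68 and 29.9% with the Empty vector, and Nbv5tr6236489 held 2.07% with MdMYB68 and 36.3% with the Empty vector. Within LAC3, Nbv5tr6242242 held 96.7 ± 0.925% of the reads with MdMYB68 and 10.8 ± 2.09% with the Empty vector (SD, n = 4 each). Within LAC12, Nbv5tr6228735 held 91.1 ± 1.58% with MdMYB68 and 5.86 ± 1.41% with the Empty vector (SD, n = 4 each). With unique reads alone the difference in this LAC12 share was 62.8 percentage points, against 85.2 from total gene reads. These shares do not depend on the library size or its scaling, and they are shares of reads without correction for length.

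Summed by symbol, the LAC3 level was 830 ± 186 with MdMYB68 and 5.72 ± 0.677 with the Empty vector, and the LAC12 level was 598 ± 26.3 with MdMYB68 and 5.48 ± 0.926 with the Empty vector (SD, n = 4 each). The IRX12 level was 93.0 ± 4.27 with MdMYB68 and 3.71 ± 0.579 with the Empty vector, and the LAC7 level was 65.1 ± 13.3 with MdMYB68 and 1.34 ± 0.294 with the Empty vector (SD, n = 4 each). The ratios of these sums were 144.9 for LAC3, 109 for LAC12, 25.0 for IRX12 and 48.5 for LAC7. With unique reads alone the log2 difference of the LAC12 sum was 4.92, against 6.78 from total gene reads, which placed it below LAC7 at 5.86. LAC3 took 42.3 to 57.2% of laccase reads with MdMYB68 and 28.5 to 40.0% with the Empty vector, without overlap. LAC12 took 34.9 to 48.4% with MdMYB68 and 33.2 to 43.7% with the Empty vector, with overlap. The IRX12 share was 4.43 to 5.26% with MdMYB68 and 15.0 to 20.3% with the Empty vector, and the LAC7 share was 3.44 to 5.26% with MdMYB68 and 6.12 to 11.9% with the Empty vector. With unique reads alone the difference in share, MdMYB68 minus Empty vector, was 34.8 percentage points for LAC3, -27.7 for LAC12, -5.11 for IRX12 and -2.004 for LAC7, against 17.6, 0.287, -13.2 and -4.69 from total gene reads.

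The balance between the leading LAC3 and LAC12 contigs varied among replicates. The ratio of their reads, LAC3 over LAC12, was 1.74, 0.908, 1.40 and 1.54 with MdMYB68, against 3.67, 1.45, 1.09 and 1.03 with the Empty vector. The ranges overlapped, and the Empty vector ratios rested on 12 to 44 reads per contig and library. Among MdMYB68 libraries the leading LAC3 contig had a coefficient of variation of 23.2% and the leading LAC12 contig 5.77%.

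**Figure D3:**
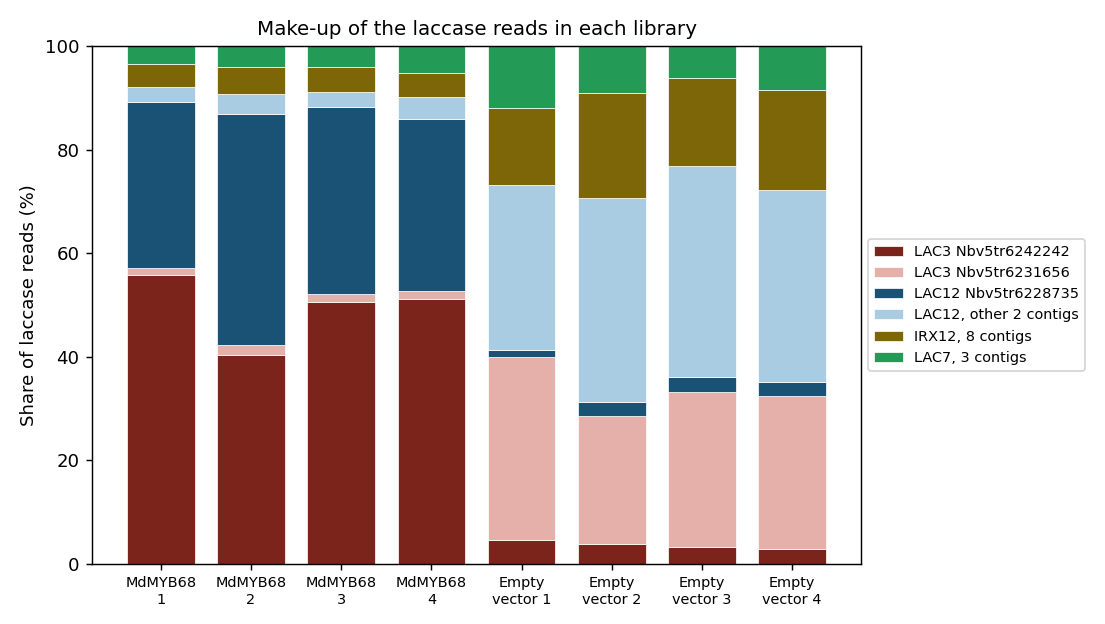
Share of laccase reads in percent, stacked per library, with the 4 MdMYB68 libraries left of the 4 Empty vector libraries and colours for the leading and other contigs of LAC3 and LAC12 and for IRX12 and LAC7. The leading LAC3 and LAC12 contigs together fill 84.4 to 87.7% of the bars with MdMYB68 and 5.46 to 6.41% with the Empty vector.

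The annotation, the contig length and the reference set differed among the members. The 11 contigs marked as probable matches were 1806 to 2988 bases long, and the 5 marked as similar were 1206 to 1628 bases long and all carried the symbol IRX12. The 10 primary contigs also passed the authors' cut-offs of 4-fold and a difference of 5 on the scale of all mapped reads, whereas the 6 alternate contigs did not. Among all listed contigs 60.0% passed in the upward direction. Uniquely placed reads were present for 13 of the 16 laccase contigs, and 13 of 13 were called higher from these reads alone. The background of 70.5% was over all 3305 listed contigs. It includes the 12.0% without a unique read, which could not be called.

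**Figure D4:**
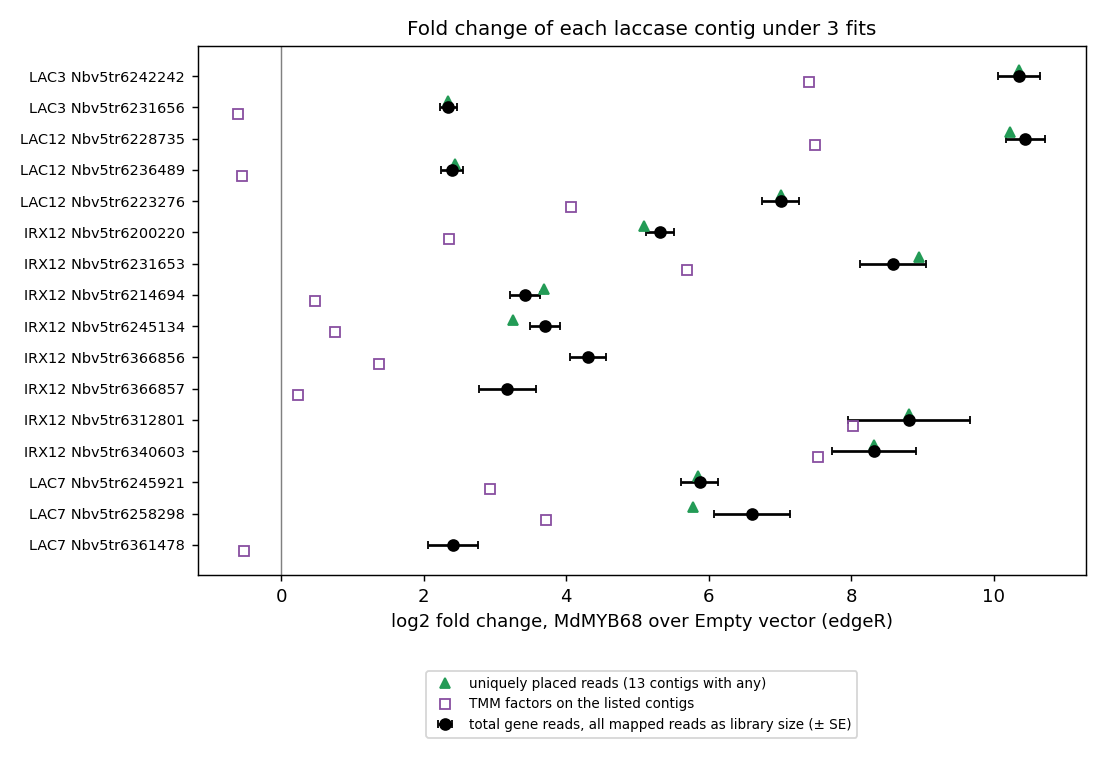
log2 fold change of each laccase contig, MdMYB68 over Empty vector, from total gene reads with all mapped reads as library size (circles with SE), from uniquely placed reads (triangles) and with TMM factors (open squares). Circles run between 2.35 and 10.44, and the squares of Nbv5tr6231656, Nbv5tr6236489 and Nbv5tr6361478 lie left of 0.

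Genes that supply or share the laccase reaction were tallied beside them, as counts without a test of the list. These counts stand beside 83.4% of all listed contigs called higher and 12.4% called lower, and under TMM beside 57.9% positive and 29.2% called higher. Of 52 contigs of monolignol synthesis, 44 were called higher, 6 lower and 2 neither, with a median log2 fold change of 2.60, below that of all contigs at 3.34. The share called higher was close to the 83.4% of all contigs, and under TMM 21 of the 52 were positive and 13 were called higher. The most abundant was Nbv5tr6232617, annotated as a hydroxycinnamoyltransferase of the shikimate ester step, at a level of 1335 ± 102 with MdMYB68 and 0.148 ± 0.0798 with the Empty vector (SD, n = 4 each; log2 fold change 13.10, edgeR adjusted p = 3.1e-10). It carries the symbol AT1G32910 and not HCT, so it entered the list by its annotation only. So did other rises, among them contigs with the symbols ACOS5 (log2 fold change 5.63) and AT4G05160 (2.29). The most abundant contig with a fall was Nbv5tr6221652, which carries the symbol HCT but is annotated as an agmatine coumaroyltransferase, at 15.5 ± 5.47 with MdMYB68 and 102.7 ± 12.8 with the Empty vector (SD, n = 4 each; log2 fold change -2.73, edgeR adjusted p = 1.5e-06). The other falls were 3 contigs of CAD1, a cinnamyl alcohol dehydrogenase, with log2 fold changes of -2.05, -2.13 and -2.28, 1 of CYP98A3, the coumarate 3-hydroxylase (-2.28), and 1 with the symbol FAH1. The other listed CYP98A3 contigs, Nbv5tr6236047 (2.80) and Nbv5tr6236721 (2.00), were called higher. That FAH1 contig, Nbv5tr6255083 (-2.03), is annotated as a fatty acid hydroxylase and not as ferulate hydroxylase, so it entered the list by its symbol only. The contigs called neither way were Nbv5tr6354270 of OMT1, a caffeic acid O-methyltransferase (log2 fold change 4.60, edgeR adjusted p = 0.0014), and Nbv5tr6207132 of PAL1, a phenylalanine ammonia-lyase (-4.02, edgeR adjusted p = 0.0057). Another PAL1 contig, Nbv5tr6262323, was called higher (3.13). The list also held caffeoylshikimate esterases that the green plant annotation calls monoglyceride lipases.

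The other oxidative enzymes had higher medians. Of 42 class III peroxidases, 41 were called higher and 1 lower, against 83.4% and 12.4% of all contigs, with a median log2 fold change of 8.07. The most abundant, the RCI3-like Nbv5tr6220770, was at 1143 ± 71.4 with MdMYB68 and 2.26 ± 0.926 with the Empty vector (SD, n = 4 each; log2 fold change 8.98, edgeR adjusted p = 1.7e-09). The fall was the alternate contig Nbv5tr6266118, annotated as peroxidase 19, at 0.509 ± 0.230 with MdMYB68 and 2.51 ± 0.694 with the Empty vector (SD, n = 4 each; log2 fold change -2.30, edgeR adjusted p = 0.00012), of whose reads 0.719% were unique. Of 6 respiratory burst oxidases, which make the superoxide that gives rise to hydrogen peroxide, 6 rose with a median of 6.999. Nbv5tr6214996, annotated as homolog E, was at 65.2 ± 5.90 with MdMYB68 and 0.592 ± 0.179 with the Empty vector (SD, n = 4 each). Of 28 dirigent and Casparian strip proteins, which guide or place radical coupling in the wall, 28 rose with a median of 10.60, and the dirigent-like Nbv5tr6205063 was at 1878 ± 142 with MdMYB68 and 0.509 ± 0.262 with the Empty vector (SD, n = 4 each). This list shares contigs with the endodermis and Casparian strip markers above, all of which it holds except those of MYB36. Of other multicopper oxidases 0 were listed.

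Copper proteins and a regulator were also among the rises. Of 16 contigs for copper supply, 16 were called higher with a median log2 fold change of 2.98, against 83.4% of all contigs and their median of 3.34. Under TMM 8 of the 16 were positive and 3 called higher, where 57.9% and 29.2% of all contigs were. The chaperone ATX1 contig Nbv5tr6243595 was at 1444 ± 74.4 with MdMYB68 and 217 ± 37.7 with the Empty vector (SD, n = 4 each; log2 fold change 2.74, edgeR adjusted p = 3.4e-08), and its sign turned to -0.22 under TMM. The list included 4 contigs with the symbol RAN1, a copper-transporting ATPase, and 3 with COPT5, a copper transporter of inner membranes. Of 11 blue copper proteins 11 rose with a median of 8.26, and the uclacyanin UCC3 contig Nbv5tr6232053 was at 1020 ± 94.1 with MdMYB68 and 1.41 ± 0.577 with the Empty vector (SD, n = 4 each). The list of lignin-linked regulators was matched by symbol only, so contigs without a symbol were not searched. It held 5 contigs of MYB4, a repressor of phenylpropanoid genes in Arabidopsis. All 5 were called higher, 3 of them also under TMM, with a median of 4.84, and Nbv5tr6237471 was at 162 ± 14.4 with MdMYB68 and 1.26 ± 0.374 with the Empty vector (SD, n = 4 each; log2 fold change 7.01, edgeR adjusted p = 9.4e-10).

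**Figure D5:**
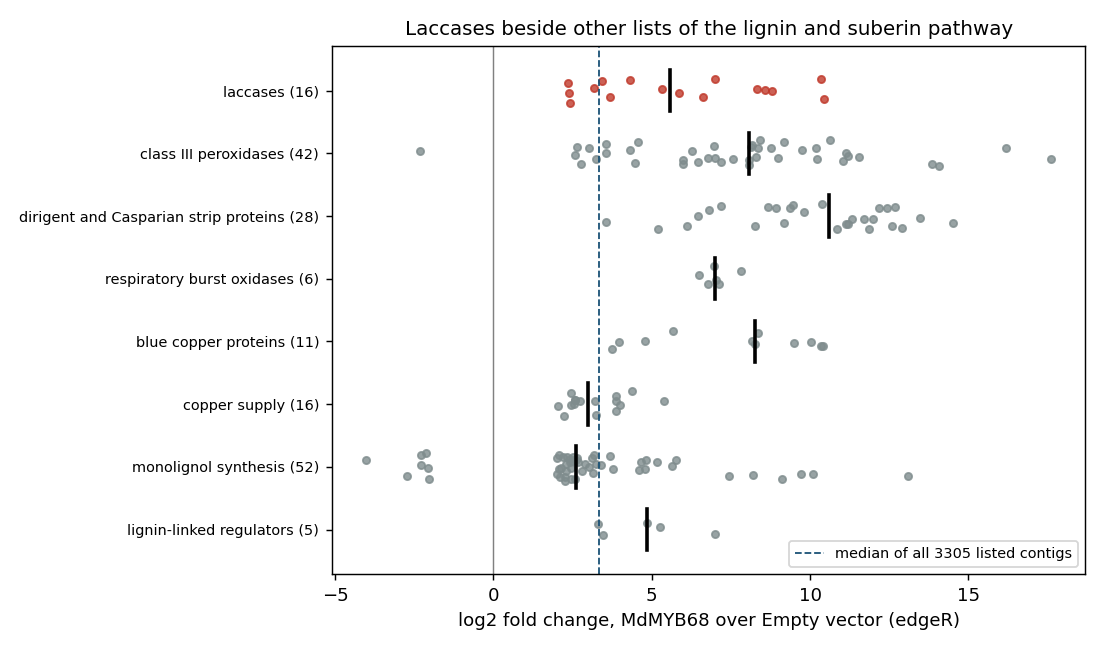
log2 fold change, MdMYB68 over Empty vector, of each contig in the laccase set (red) and in 7 other lists (grey), with the number of contigs in parentheses, a black bar at the median of each list and a dashed line at the median of all 3305 listed contigs. The laccase median of 5.59 lies between that of monolignol synthesis at 2.60 and that of dirigent and Casparian strip proteins at 10.60.

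The contigs most like the 3 laccases that the study singled out were found by Euclidean distance in log2(level + 1) over the 8 libraries. For the LAC12 contig Nbv5tr6228735 these were Nbv5tr6218132, an R2R3-MYB factor with the symbol MYB84 (distance 0.488), the polygalacturonase Nbv5tr6217850 (0.524) and Nbv5tr6228213 with the symbol TBL34 (0.688), whose family acetylates wall polysaccharides. Their mean levels were 561, 483 and 567 with MdMYB68 and 0.204, 0.260 and 0.231 with the Empty vector. For the LAC3 contig Nbv5tr6242242 they were Nbv5tr6205463, annotated as peroxidase 64 (0.871), the annexin Nbv5tr6235112 (0.905) and Nbv5tr6214831, a cytochrome b561 domain protein (1.16). For the IRX12 contig Nbv5tr6231653 they were Nbv5tr6220564, annotated as an ABC transporter of the G family (0.337), the uclacyanin Nbv5tr6312387 (0.412) and Nbv5tr6290920, a bHLH factor with the symbol HEC2 (0.437). The distances rest on the difference between the same groups of libraries and describe level and size of change together.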

How the data were processed

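RNA of agroinfiltrated leaves was sequenced by the authors as 75 base-pair paired-end reads and mapped in CLC Genomics Workbench to version 5 of the N. benthamiana transcriptome, which has a primary and an alternate set. Counts deposited by the authors are of total gene reads and of uniquely placed reads and are raw. The deposited RPKM values refer to contig length and to the mapped reads of the set the contig belongs to, and group means are given too. The authors' columns of fold, difference, p-value and FDR were not used. The number of per-sample columns left unused for want of a sample is 0. The 3305 contigs are those that passed the authors' cut-offs of FDR 0.001, 4-fold and 5 RPKM.

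Library totals were recovered from the RPKM denominators (24390 of 24390 values within 1 read) and set as library sizes with normalization factors of 1. Total gene reads were tested with edgeR 4.0.16 (glmQLFit, glmQLFTest) in R 4.3.3, with no filter or covariate and Benjamini-Hochberg adjustment over 3305 contigs at 0.001. SE is the log2 fold change over the root of F. A single contig was also tested by an exact permutation of log2(RPKM + 1), the scale with a pseudocount of 1. Floors of 3 reads and 95% Clopper-Pearson intervals cover counting error only. The test was also run on simulated counts in which a small part of the contigs changed, in both directions. That setting differs from the selected table, so the run does not bear on the scaling or the selection.

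Members were chosen by annotation and symbol. Members and gene lists were chosen with earlier results of these data known. Lists were matched by symbol, by annotation or by both, and the lists of lignin-linked regulators and of xylem markers by symbol only. Values in every library were to be given for contigs the study tabulates, the leading contig of each symbol, contigs without an Empty vector read, and contigs not called or negative under TMM. In each list the most abundant contig per direction was named; the other falls and the uncalled contigs of monolignol synthesis were named after their values were seen. Alternatives were other read types, TMM, DESeq2 1.42.0, limma 3.58.1, other library sizes, a filter at a mean of 10 reads, a threshold of 0.05, a test against a 2-fold change, leaving out each library, and a replicate block. Python 3.11.15, numpy 2.4.6, scipy 1.17.1, pandas 2.3.3 and matplotlib 3.10.9 were used.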

Additional observations from a re-analysis of the deposited data

How the results depend on the processing

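The 16 laccase contigs stayed called higher when any 1 library was left out (16 to 16), with a median log2 fold change of 5.51 to 5.72, against 3078 to 3158 calls over all contigs, where the full set gave 3168. TMM factors gave 9 laccase contigs called higher and 1 called lower (Nbv5tr6231656), and 1576 calls in both directions over all contigs, with a laccase median of 2.64. DESeq2's median-of-ratios factors gave 1977 calls in both directions and a laccase median of 2.67, and limma on log2(RPKM + 1) gave a median of 3.11. Under TMM and DESeq2's factors the log2 fold change turned to -0.61 and -0.58 for Nbv5tr6231656, to -0.55 and -0.52 for Nbv5tr6236489 and to -0.53 and -0.51 for Nbv5tr6361478. Both scalings centre the selected contigs, most of which were higher with MdMYB68. Calls of monolignol synthesis fell to 13 (TMM) and 14 (DESeq2) of 44, of copper supply to 3 and 5 of 16, and of regulators to 3 of 5 (TMM).

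With uniquely placed reads, the log2 difference of summed levels was 4.92 for LAC12 and 4.83 for IRX12, against 6.78 and 4.66 from total gene reads, and with deposited RPKM it was 5.04 for LAC7, against 5.59. The difference in share of laccase reads, MdMYB68 minus Empty vector, became 34.8 percentage points for LAC3, -27.7 for LAC12, -5.11 for IRX12 and -2.004 for LAC7, against 17.6, 0.287, -13.2 and -4.69 from total gene reads. The share of the leading contig among LAC7 reads differed by -0.0197 points, against 22.1. For LAC12 that share differed by 62.8 points, against 85.2, and for IRX12 by 7.03 points, against 17.0. When 1 library was left out, log2 differences of summed levels ran over 7.05 to 7.32 for LAC3, 6.67 to 6.87 for LAC12, 4.54 to 4.73 for IRX12 and 5.45 to 5.72 for LAC7. Differences in share ran over 15.6 to 20.5 points for LAC3, -2.54 to 1.96 for LAC12, -14.2 to -12.4 for IRX12 and -5.61 to -3.68 for LAC7.

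Replicate numbers are shared between the groups, but same-numbered libraries did not deviate together (correlations of -0.10, -0.09, -0.01 and 0.02), and 1 of 4 matched its own number best. With the replicate block, 12 of 16 laccase contigs and 2615 of 3305 contigs were called. Nbv5tr6366857, Nbv5tr6312801, Nbv5tr6340603 and Nbv5tr6361478 were not, with edgeR adjusted p of 0.0010 to 0.0026. A library size without the listed contigs, added after seeing the data, gave 16 laccase calls. Levels under 1 with the Empty vector rest on few reads per library, and the precision of ratios is set by them.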
